A study of Mus musculus with 8 samples.

Results

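The genes described here are 10 markers of intestinal stem cells, Lgr5, Ascl2, Olfm4, Smoc2, Tnfrsf19, Prom1, Bmi1, Lrig1, Msi1 and Hopx, measured in mucosa and tumours of Apc mutant mice with and without the protease inhibitor HAI-1. Members were all probe sets that the platform annotation gives to one of these genes alone, which are 22 of 45101 probe sets on the array, and no further probe set lists one of them together with another gene. Each of the 10 genes had at least 1 probe set, and 2 of them, Olfm4 and Prom1, had a single one. All 8 arrays came from C57BL/6 mice that carried Apc (Min/+), a mutation that gives rise to intestinal tumours, together with Spint1 (flox/flox), in which the gene for HAI-1 is flanked by loxP sites, and that ate the AIN-76 diet. Control mice had no Cre, and HAI-1 deficient mice carried Vil-Cre, which acts only where the villin promoter is active, in the intestinal epithelium, so other cells of the tissue keep the gene. From each genotype, non-tumour small-intestinal mucosa and tumours of the small intestine were measured, which gives 4 groups of 2 arrays. The labels give no ages. They leave unsaid if the paired arrays of a group stem from separate animals, and if mucosa and tumours were taken from shared ones, so the p-values reflect the variation among these samples alone, which may be technical.

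Intestinal stem cells sit at the base of the crypts, between Paneth cells, and renew the epithelium by division. They depend on Wnt signals, which stabilise beta-catenin and switch on genes together with TCF and LEF factors, on R-spondins, which strengthen those signals through Lgr receptors, and on Notch. Apc removes beta-catenin when Wnt is absent, so that cells without functional Apc behave as if the signal were always on. Lgr5, Ascl2, Olfm4, Smoc2 and Tnfrsf19 are known as markers of the columnar cells of the crypt base. Bmi1, Lrig1 and Hopx were described as markers of slower cycling reserve cells higher in the crypt, while Prom1 and Msi1 mark stem cells and their dividing progeny.

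Signals are given on the log2 scale, as deposited, 1 value per array. A probe set passed the filter on dim signals when its mean over the 8 arrays was at least 5.20 on the log2 scale, the 40th percentile of all probe sets. Of the 22 probe sets 16 passed, among them at least 1 of every gene, and each gene was tested through its brightest one, within a fit to 13118 genes. Names ending in _s_at mark probes that can be shared between transcripts, which holds for the tested sets of Ascl2 and Lrig1. The tested probe sets were 1450988_at (Lgr5), 1460514_s_at (Ascl2), 1437060_at (Olfm4), 1415935_at (Smoc2), 1448147_at (Tnfrsf19), 1419700_a_at (Prom1), 1417493_at (Bmi1), 1434210_s_at (Lrig1), 1452287_at (Msi1) and 1428662_a_at (Hopx). Spint1 was lower on every HAI-1 deficient array than on every control array. Control values were 12.87 and 13.00 (mucosa) and 12.75 and 13.06 (tumours), and deficient ones 12.46 and 12.25 (mucosa) and 11.76 and 11.84 (tumours), differences without a call by limma (-0.58 ± 0.24 log2, adjusted p = 0.271, and -1.10 ± 0.24, adjusted p = 0.779). The position of its probe set relative to the deleted exons was not known here, so this is a limited check of the labels. Several arrays stood apart. On the second of the control tumours, 3' Gapdh probes gave 25.9 times the signal of 5' ones, while the 7 others ranged over 0.803 to 1.77, and for Actb the values were 2.32 and 1.15 to 1.52. Poly-A spike-in transcripts averaged 7.90 to 8.35 log2 on 3 arrays, the second ones of both mucosa groups and of deficient tumours, and 6.22 to 7.02 on the rest. Probes for 18S ribosomal RNA averaged 14.60 log2 on the second control mucosa array and 13.63 on the second deficient mucosa array, against 7.61 to 10.07 on the other 6. The part of the 18S signal in the comparisons with mucosa was not tested beyond leaving out each array. The mean signal of 7 epithelial markers lay between 14.27 and 14.50 log2 on all 8 arrays and no marker was at 0, which shows epithelium in every sample but does not tell tumour from mucosa.

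Tumours of control mice had more stem cell marker signal than control mucosa: 6 of the 10 genes rose, none fell, and the median difference was 2.04 log2, against 0.24 over all tested genes. In this comparison 28.8% of all tested genes were called, 21.2% as higher. Arrays of the 2 groups did not overlap for 9 of the 10, all higher in tumours, as for 45.3% of all tested genes. Without each array in turn, those of 18S and Gapdh included, 6 were called. With the mean of all probe sets of a gene in place of the brightest, which takes in the dim ones, 3 were: Lgr5 (1.18 log2, limma, adjusted p = 0.0681) and Ascl2 (1.14, adjusted p = 0.273) lost their calls, Msi1 fell under the filter, and Tnfrsf19 and Smoc2 were called at 1.68 and 1.82 log2. In a tissue sample, more cells of a type and more RNA per cell cannot be told apart.

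**Figure D1:**
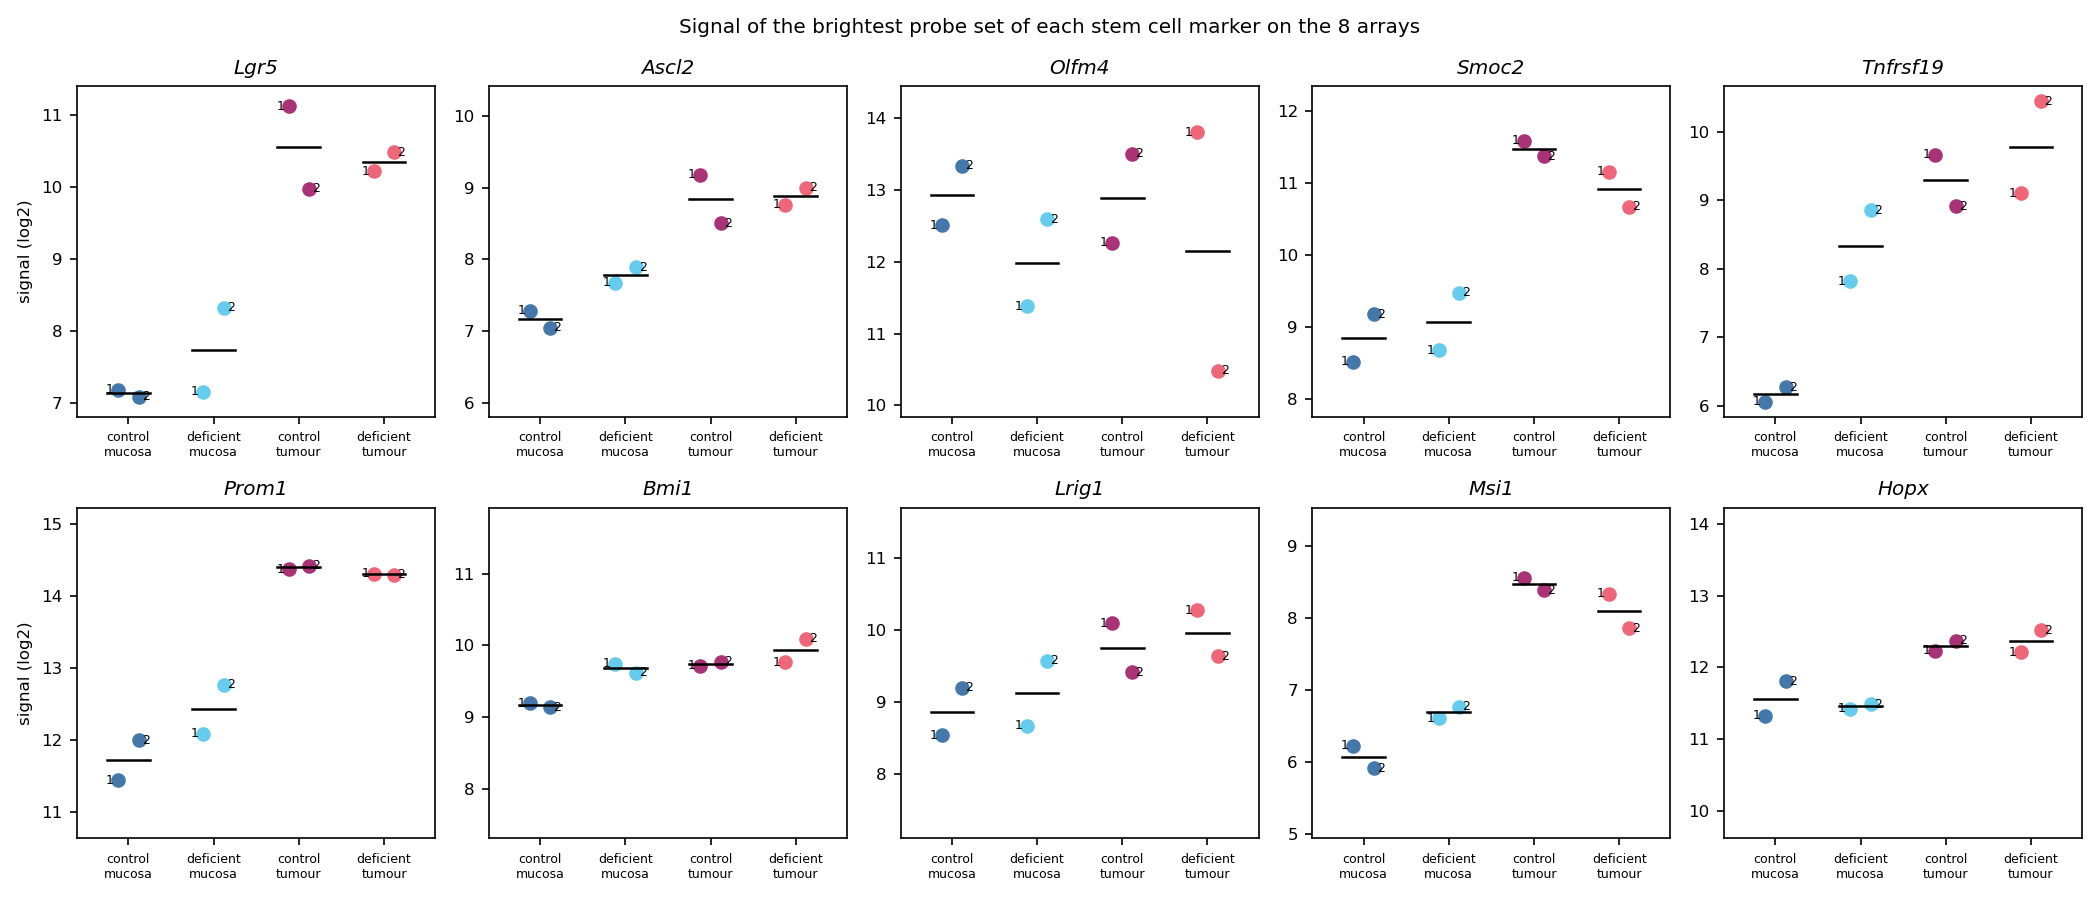
Log2 signal of the brightest probe set of each of the 10 stem cell markers on the 8 arrays, with points for single arrays (numbered 1 and 2 as in the labels) and lines for the means of 2. Lgr5, Ascl2, Smoc2, Tnfrsf19, Prom1, Msi1 and Hopx stand higher in both tumour groups than in both mucosa groups. For Ascl2, Tnfrsf19, Prom1 and Msi1 the deficient mucosa lies between control mucosa and the tumours, apart from both. Olfm4 spreads from 10.48 to 13.80 within the deficient tumours.

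Among the genes of the crypt base, Lgr5, an R-spondin receptor and itself a Wnt target, had the largest difference of the 10 in control mice. Its signal was 7.18 and 7.09 in control mucosa, 7.16 and 8.32 in deficient mucosa, 11.13 and 9.98 in control tumours and 10.22 and 10.49 in deficient tumours. Every tumour array thus lay above every mucosa array, and the tumour groups overlapped. Lgr5 rose in control tumours by 3.42 ± 0.48 log2 (SE, n = 2 per group, limma, adjusted p = 0.00344), which is 10.7-fold. Ascl2, a basic helix-loop-helix transcription factor that maintains these cells, was 7.29 and 7.05 in control mucosa and 9.18 and 8.50 in control tumours. It was 7.67 and 7.89 in deficient mucosa, above control mucosa and below the tumours, and 8.76 and 8.99 in deficient tumours. Ascl2 rose 3.19-fold in control tumours (1.67 ± 0.30 log2, limma, adjusted p = 0.00705).

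Smoc2, a secreted calcium-binding matricellular protein, read 8.51 and 9.18 in control mucosa, 8.67 and 9.47 in deficient mucosa, 11.58 and 11.37 in control tumours and 11.15 and 10.67 in deficient tumours. The mucosa groups overlapped, and both lay below all tumour arrays. It rose 6.20-fold in control tumours (2.63 ± 0.37 log2, limma, adjusted p = 0.00349). Tnfrsf19, also called Troy, is a receptor of the tumour necrosis factor receptor family and a Wnt target known to dampen Wnt signalling in crypt base cells. Its signal was 6.06 and 6.27 in control mucosa, 7.82 and 8.86 in deficient mucosa, 9.66 and 8.91 in control tumours and 9.10 and 10.45 in deficient tumours. The order of the means ran from control mucosa through deficient mucosa to the tumours, with the first 3 groups apart from each other and the tumour groups overlapping. Tnfrsf19 rose 8.73-fold in control tumours (3.13 ± 0.53 log2, limma, adjusted p = 0.00606).

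Prom1, which encodes the membrane glycoprotein CD133, read 11.4455 and 11.9997 in control mucosa, 12.09 and 12.77 in deficient mucosa, 14.38 and 14.43 in control tumours and 14.31 and 14.30 in deficient tumours. All 4 groups were apart, although the tumour groups differed by less than the arrays of either mucosa group did. The rise in control tumours was 6.41-fold (2.68 ± 0.31 log2, limma, adjusted p = 0.00197). Msi1, an RNA-binding protein that represses translation of the Notch inhibitor Numb, was 6.23 and 5.92 in control mucosa, 6.61 and 6.77 in deficient mucosa, 8.56 and 8.39 in control tumours and 8.34 and 7.86 in deficient tumours. All 4 groups were again apart, in the same order as for Prom1. Msi1 rose 5.30-fold in control tumours (2.40 ± 0.27 log2, limma, adjusted p = 0.00182).

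The 3 reserve cell markers differed less between control tumours and mucosa, and none of them was called there. Bmi1, a subunit of the Polycomb repressive complex that modifies histone H2A, was 9.19 and 9.14 in control mucosa, 9.75 and 9.62 in deficient mucosa, 9.72 and 9.78 in control tumours and 9.77 and 10.09 in deficient tumours. Control mucosa stood below the other 3 groups, whose neighbours in order overlapped, and the difference between control tumours and mucosa was 0.58 ± 0.24 log2 (limma, adjusted p = 0.106). Lrig1, a transmembrane protein that restrains ErbB receptors, read 8.53 and 9.20 in control mucosa, 8.66 and 9.57 in deficient mucosa, 10.09 and 9.41 in control tumours and 10.27 and 9.63 in deficient tumours. Each group overlapped its neighbour in order, and in control mice the difference was 0.89 ± 0.44 log2 (adjusted p = 0.166, limma). Hopx, an atypical homeodomain protein that does not bind DNA, was 11.33 and 11.81 in control mucosa, 11.43 and 11.49 in deficient mucosa, 12.23 and 12.37 in control tumours and 12.21 and 12.52 in deficient tumours. The mucosa groups overlapped each other, as did the tumour groups, and all tumour arrays were higher. Its difference was 0.74 ± 0.27 log2 in control mice (adjusted p = 0.0743, limma) and 0.82 ± 0.19 averaged over both genotypes, where it was called (1.77-fold, adjusted p = 0.0131, limma). This call rested on the brightest probe set. A second Hopx set that passed the filter was at -0.0048 log2 over both genotypes (limma, adjusted p = 0.991). With the mean of the probe sets, Hopx was at 0.41 and was not called (limma, adjusted p = 0.160).

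Olfm4, a secreted glycoprotein that is abundant in crypt base cells and induced by Notch, did not follow the others. Its signal was 12.50 and 13.33 in control mucosa, 11.38 and 12.59 in deficient mucosa, 12.26 and 13.50 in control tumours and 13.80 and 10.48 in deficient tumours. All groups overlapped their neighbours in order, and the 2 deficient tumour arrays held both the highest and the lowest value of the 8. Control tumours and mucosa differed by -0.039 ± 1.01 log2 (limma, adjusted p = 0.983). Its standard error was the widest of the 10 members.

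**Figure D2:**
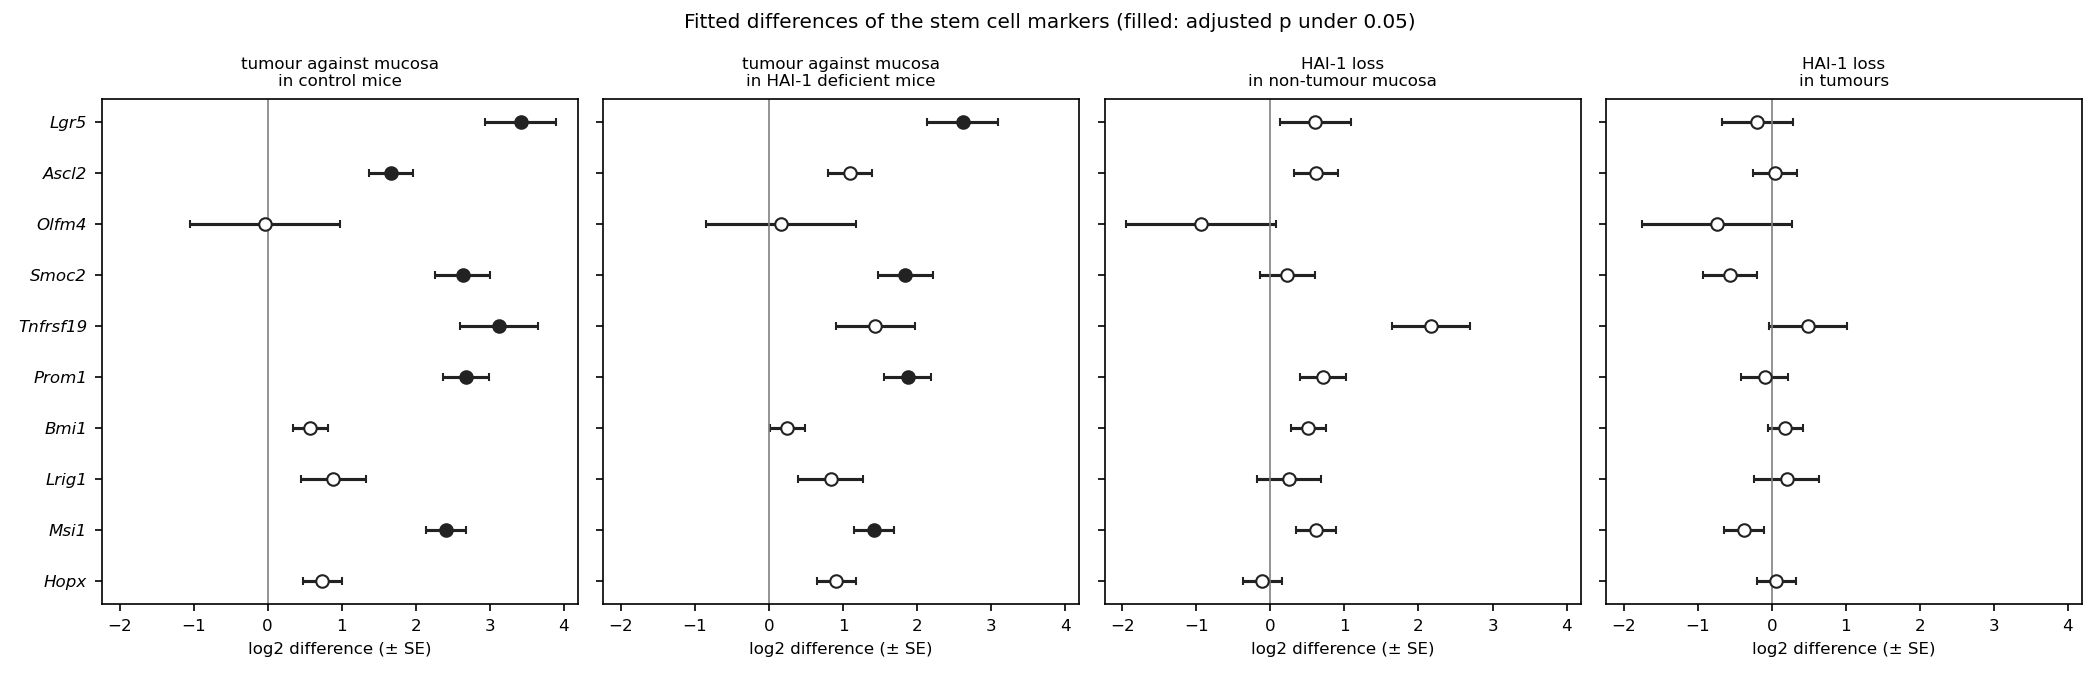
Fitted log2 differences with standard errors for the 10 stem cell markers in 4 comparisons, from 2 arrays per group; filled points had a limma adjusted p under 0.05. In control mice 6 points are filled, in deficient mice 4, and for HAI-1 loss none in either tissue.

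In HAI-1 deficient mice, tumours again stood above mucosa for the stem cell markers, with 4 of 10 called, all higher, and a median of 1.25 log2 against 0.18 over all tested genes. Here 4.20% of all tested genes were called, 2.45% as higher. Lgr5 rose 6.12-fold (2.61 ± 0.48 log2, limma, adjusted p = 0.0366), Prom1 3.66-fold (1.87 ± 0.31, adjusted p = 0.0309), Smoc2 3.58-fold (1.84 ± 0.37, adjusted p = 0.0437) and Msi1 2.66-fold (1.41 ± 0.27, adjusted p = 0.0390). Ascl2 differed by 1.10 ± 0.30 log2 (adjusted p = 0.0815), Tnfrsf19 by 1.44 ± 0.53 (adjusted p = 0.150) and Hopx by 0.91 ± 0.27 (adjusted p = 0.0954), all without a call by limma, while Lrig1, Bmi1 and Olfm4 were at 0.83, 0.25 and 0.16. Arrays did not overlap for 9 of the 10, all higher in tumours, as for 36.6% of all tested genes. The 4 calls depended on the arrays and on the fit. With all arrays kept, 0 members were called with no filter on dim signals, with only the groups compared or with probe sets tested on their own. As for single arrays, 0 members were called without any single 1 of the control mucosa, deficient mucosa or deficient tumour arrays, and 2 without either control tumour array.

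Averaged over both genotypes, 7 of the 10 markers were higher in tumours and 0 lower, where 25.7% of all tested genes were called as higher and 35.8% in either direction. They were Lgr5 (8.09-fold, 3.02 ± 0.34 log2, limma, adjusted p = 0.00119), Tnfrsf19 (4.86-fold), Prom1 (4.85-fold), Smoc2 (4.71-fold), Msi1 (3.76-fold), Ascl2 (2.61-fold) and Hopx. The other 3 were Lrig1 at 0.86 ± 0.31 log2 (adjusted p = 0.0633), Bmi1 at 0.41 ± 0.17 (adjusted p = 0.0907) and Olfm4 at 0.060 ± 0.71 (adjusted p = 0.954), not called by limma. Arrays did not overlap for 7, all higher, as for 23.4% of all tested genes. Without each array in turn, 7 or 8 of the 10 were called.

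Signal of stromal cells moved with the same comparison. All 7 fibroblast markers and all 6 smooth muscle markers were called higher in control tumours, at medians of 3.54 and 3.42 log2. Of all tested genes 21.2% were called higher there, and their median was 0.24. In deficient mice 4 of 7 and 2 of 6 were called higher, at medians of 2.11 and 2.09 log2. Of all tested genes 2.45% were called higher in that comparison, with a median of 0.18. The mean fibroblast marker signal was 8.28 to 8.44 log2 in control mucosa, 9.32 to 9.75 in deficient mucosa, 11.96 to 12.08 in control tumours and 11.49 to 11.56 in deficient tumours. The group means of Lgr5, Smoc2, Prom1 and Msi1 had the same order, although the tumour groups overlapped for Lgr5. Smooth muscle markers ranged over 7.22 to 7.42, 8.10 to 8.62, 10.18 to 11.07 and 9.90 to 10.78 in these groups. No fibroblast or smooth muscle marker was at 0 on any array, but Cnn1, Myh11, Des and Lum had arrays under the filter value. With low values raised to it, control tumours stood 2.44 log2 above mucosa for Cnn1, against 3.92 as fitted. For Myh11 this was 3.17 against 3.84, for Des 3.28 against 3.50, and Lum stayed at 3.54. Smoc2 and Tnfrsf19 are also expressed by mesenchymal cells in several tissues, and the part of stromal cells in the stem cell marker differences was not tested. Epithelial markers gave a mean signal of 14.28 to 14.34 in control mucosa and 14.40 to 14.49 in control tumours. Single markers were not all level. Of 7 tested, Krt18 was called higher in control tumours (1.81 ± 0.22 log2, limma, adjusted p = 0.00231), with a list median of -0.077. Averaged over both genotypes, 2 were called higher and 1 lower by limma.

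**Figure D3:**
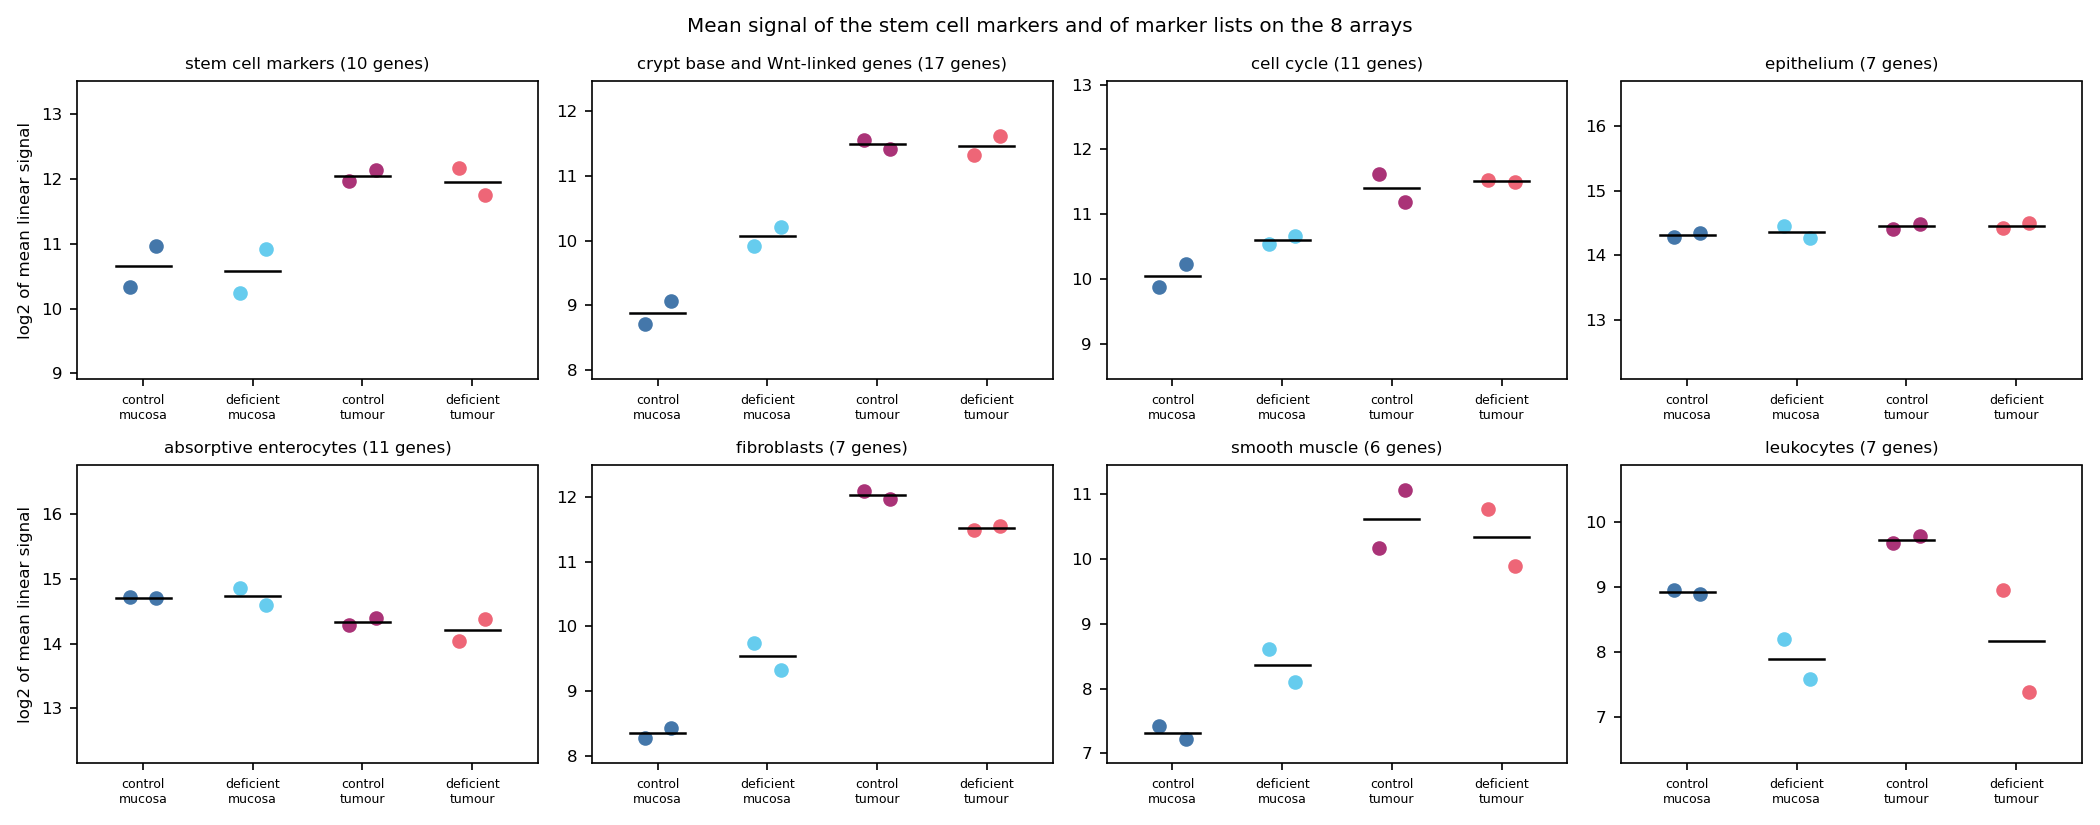
Log2 of the mean linear signal of the tested genes of 8 lists on the 8 arrays, with points for arrays and lines for group means. Fibroblast and smooth muscle lists rise from mucosa to tumour along with stem cell, crypt base and cell cycle genes, while the mean of the epithelium list stays within 14.27 to 14.50.

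HAI-1 loss in non-tumour mucosa, which compares deficient with control mice outside tumours, called 0 of the 10 stem cell markers by limma, where 1.05% of all tested genes were called. The median difference was 0.56 log2, against 0.11 over all tested genes, and 8 of the 10 had a positive fitted difference. Tnfrsf19 came nearest to a call. Its deficient arrays, at 7.82 and 8.86, lay above the control arrays at 6.06 and 6.27, a difference of 2.17 ± 0.53 log2 or 4.51-fold (limma, adjusted p = 0.0939). It was the 1 member with an unadjusted p under 0.05, as were 17.5% of all tested genes. The difference was 1.76 between the arrays of low spike-in signal and 2.58 between those of high signal, each with 1 array per group. The mean fibroblast marker signal was also higher on the deficient mucosa arrays, at 9.32 to 9.75 against 8.28 to 8.44 log2 in the controls. The median difference of these markers was 1.34, with 0 of 7 called by limma. At an unadjusted p under 0.05 by limma, 6 were higher and 1, Lum, was lower (-1.37 ± 0.46 log2, with 2 arrays under the filter value). The part of fibroblasts in the Tnfrsf19 difference was not tested.

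Ascl2, Prom1, Bmi1 and Msi1 also had both deficient mucosa arrays above both control ones, which with Tnfrsf19 makes 5 of 10, as for 30.9% of all tested genes. Their differences were small, at 0.62 ± 0.30 log2 for Ascl2 (adjusted p = 0.347), 0.71 ± 0.31 for Prom1 (adjusted p = 0.298), 0.51 ± 0.24 for Bmi1 (adjusted p = 0.316) and 0.62 ± 0.27 for Msi1 (adjusted p = 0.294), all by limma. Lgr5 differed by 0.61 ± 0.48, and this rested on 1 array, since the first deficient array at 7.16 was within the range of controls and the second read 8.32. Smoc2 and Lrig1 differed by 0.23 ± 0.37 and 0.25 ± 0.44, Hopx by -0.11 ± 0.27 and Olfm4 by -0.94 ± 1.01. In both genotypes the second mucosa array, of high spike-in signal, was above the first for Olfm4, Smoc2, Tnfrsf19, Prom1, Lrig1 and Hopx. A fit with a spike-in term also called 0 members for HAI-1 loss in mucosa, and 130 of all tested genes against 138 without the term. Whether that split bears on these values was not tested beyond this fit, leaving out each array and the comparison within each class.

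Promoter sequence is shown for 3 of the crypt base genes that have a RefSeq entry. Of the upstream windows that RefSeq (GRCm38.p6) gives for Tnfrsf19, the one at chr14:61037988-61038237, minus strand, holds a TCF and LEF core, in capitals, whereas no such core was found in the upstream windows of Ascl2 or Olfm4. The 250 bases before the start are shown 5′ to 3′ for these genes, with Ascl2 at chr7:142969265-142969514, minus strand, and Olfm4 at chr14:80000052-80000301, plus strand. In Olfm4 the capitals mark a core of RBPJ, the DNA-binding partner of Notch.
Tnfrsf19: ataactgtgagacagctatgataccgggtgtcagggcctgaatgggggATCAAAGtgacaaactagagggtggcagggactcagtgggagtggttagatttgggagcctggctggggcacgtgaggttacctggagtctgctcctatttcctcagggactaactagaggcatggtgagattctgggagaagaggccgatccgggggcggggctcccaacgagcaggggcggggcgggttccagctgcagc
Ascl2: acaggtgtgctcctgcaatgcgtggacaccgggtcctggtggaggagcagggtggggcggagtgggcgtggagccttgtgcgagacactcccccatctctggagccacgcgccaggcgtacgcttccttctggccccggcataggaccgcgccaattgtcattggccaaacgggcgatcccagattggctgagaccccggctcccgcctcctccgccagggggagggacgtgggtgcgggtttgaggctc
Olfm4: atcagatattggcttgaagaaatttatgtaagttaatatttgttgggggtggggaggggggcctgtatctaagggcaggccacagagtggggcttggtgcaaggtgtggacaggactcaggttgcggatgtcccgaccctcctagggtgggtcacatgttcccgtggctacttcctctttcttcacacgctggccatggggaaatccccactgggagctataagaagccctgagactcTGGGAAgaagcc
The letters searched on both strands were CTTTG followed by AA, AT, TA or TT for TCF and LEF, and TGGGAA for RBPJ. The first set was found in 1 of the 10 upstream windows of the 7 members that had an entry, at -202 to -196 from the Tnfrsf19 start, and in 14.8% of all 32851 windows. The RBPJ core was found in 3 of the 10, those of Olfm4, Bmi1 and one of the Prom1 starts, and in 21.6% of all windows. A match is a description of letters and not of binding.

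HAI-1 loss within tumours called 0 of the 10 markers, as it called 0 of all tested genes by limma, with 6.11% of genes but 0 members at an unadjusted p under 0.05. The median difference was -0.029 log2, and the fitted values ran from -0.74 ± 1.01 for Olfm4 to 0.48 ± 0.53 for Tnfrsf19. Lgr5 differed by -0.20 ± 0.48 and Ascl2 by 0.040 ± 0.30. Both deficient tumour arrays lay below both control ones for the tested sets of Smoc2 (-0.56 ± 0.37), Msi1 (-0.37 ± 0.27) and Prom1 (-0.098 ± 0.31). With the tested sets 0 markers were apart the other way. These patterns held for 19.4% and 18.6% of all tested genes. Among second sets that passed the filter, that of Hopx was apart as higher (1.13 log2) and that of Bmi1 as lower (-0.30). The second Smoc2 set was at 0.63 log2, with overlap, opposite in sign to the tested one. For Olfm4 the second deficient tumour array, of high spike-in signal, decided the sign, since the difference was 0.92 without it.

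An interaction term compared how HAI-1 loss acted in the 2 tissues, as the tumour effect less the mucosa one, and 0 members and 0 of all tested genes were called by limma, with 9.23% of genes at an unadjusted p under 0.05. Msi1, at -0.99 ± 0.38 log2 (adjusted p = 0.499), was the 1 member of these, and Tnfrsf19 was at -1.69 ± 0.75 (adjusted p = 0.557). A difference between the tissues in the effect of HAI-1 loss on these genes was therefore not shown.

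Other probe sets of the same genes followed the tested one in part. Ascl2 had a second probe set that passed the filter, with 5.12 and 5.68 in control mucosa and 8.79 and 7.68 in control tumours, the same direction and a larger difference averaged over genotypes (2.61 against 1.38 log2). The second Tnfrsf19 set read 4.46 and 5.22 in control mucosa, 6.42 and 6.51 in deficient mucosa, 7.17 and 5.61 in control tumours and 6.88 and 8.45 in deficient tumours, so that deficient mucosa and control tumours overlapped. Its difference for HAI-1 loss in mucosa was 1.62 log2, against 2.17 for the tested set. Between control tumours and mucosa it differed by 1.55 log2 without a call (limma, adjusted p = 0.131), against 3.13 for the tested set. Lrig1 and Bmi1 each had a second passing set with averaged tumour differences of 0.74 and 0.45 log2, the sign of the tested ones. The second Smoc2 set read 5.99 and 6.78 in control mucosa and 8.02 and 6.79 in control tumours, where the second tumour array barely exceeded mucosa. That difference was 1.02 log2 without a call (limma, adjusted p = 0.216), against 2.63 for the tested set.

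Hopx was the exception. Its second probe set, also of the _s_at kind, read 10.03 and 10.27 in control mucosa, 9.90 and 9.84 in deficient mucosa, 9.92 and 8.96 in control tumours and 10.38 and 10.76 in deficient tumours. Control tumours were below control mucosa here and deficient tumours above deficient mucosa, and the lowest value lay on the array with the high Gapdh ratio. The 6 probe sets under the filter were 1 each of Lgr5, Ascl2, Tnfrsf19 and Lrig1 and 2 of Msi1, with means of 3.17 to 4.95 log2. The dim Lgr5 set did not show the rise of the bright one, at 5.95 and 5.20 in control mucosa and 4.85 and 4.20 in control tumours, and the dim Ascl2 set dropped to 0.10 on the second control tumour array. Values this low carry large errors on the log2 scale, and no test was made on them.

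**Figure D4:**
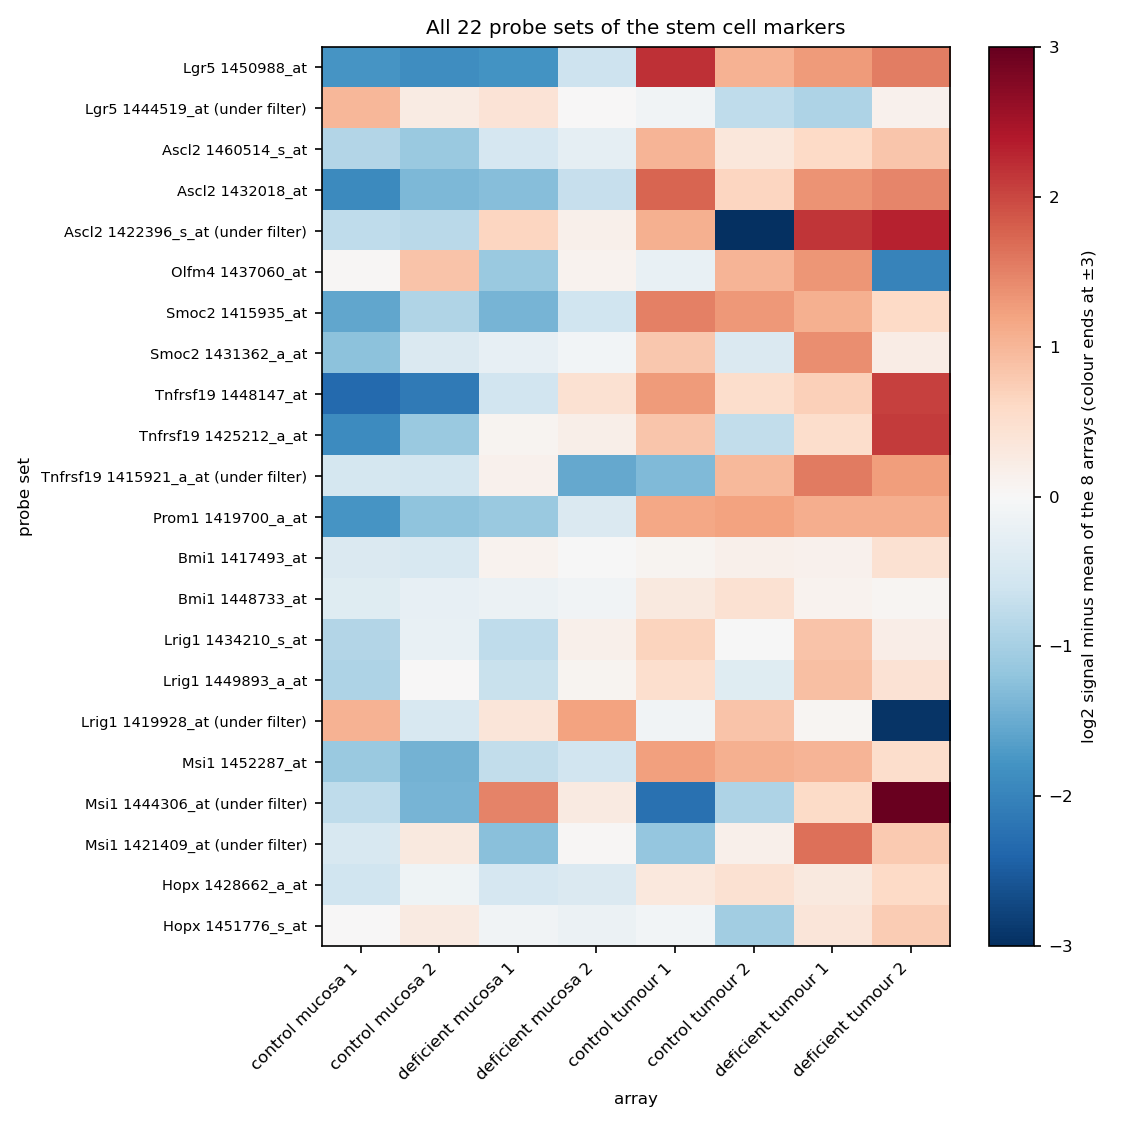
Log2 signal of all 22 probe sets of the 10 stem cell markers minus the mean of each over the 8 arrays, in colour, with arrays in columns and probe sets in rows. The tested sets of Lgr5, Ascl2, Smoc2, Prom1 and Msi1 are blue in mucosa and red in tumours, and that of Tnfrsf19 is already near its mean in deficient mucosa. Of the 6 sets under the filter, those of Ascl2, Tnfrsf19 and Msi1 have their highest group mean in deficient tumours. Those of Lgr5 and Lrig1 have it in mucosa.

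The patterns of single members across the 8 arrays were compared by the root mean square difference of log2 signals after each gene was centred on its mean. Smoc2 and Prom1 were the closest pair of members, at 0.28, and Msi1 lay within 0.37 of Smoc2, Prom1 and Ascl2. Bmi1 and Hopx were 0.34 apart. Olfm4 was 1.06 to 2.06 from every other member. Among all tested genes, the 5 most like Lgr5 were F5 (0.24), which encodes coagulation factor V, the phosphatase gene Ptprz1 (0.38), Iffo2 (0.40), Tpd52l1 (0.40) and the choline transporter-like gene Slc44a2 (0.40). Those most like Olfm4 were the lectin gene Itln1 (0.41), known from Paneth and goblet cells, the calpain Capn13 (0.46), the fatty acyl-CoA reductase Far2 (0.46), Mettl4 (0.49) and Samsn1 (0.50). For Hopx they were Sass6, Lhpp, Zfp664, Kars and Usp49, at 0.12 to 0.14.

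Itln1 read 12.93 and 13.72 in control mucosa, 11.79 and 13.18 in deficient mucosa, 13.61 and 14.38 in control tumours and 13.63 and 11.24 in deficient tumours. It was low on the second deficient tumour array as Olfm4 was. Since Itln1 was chosen for its likeness to Olfm4 over these same arrays, this is not a separate finding. The 5 tested Paneth cell markers, of which Itln1 is 1, had a mean signal of 13.55 to 13.83 in deficient tumours.

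Genes that act with these markers were followed through lists. Of 18 crypt base and Wnt-linked genes 17 were tested, and 12 rose and 0 fell in control tumours (median 2.20 log2), where 21.2% of all tested genes were called higher and 7.65% lower. The 5 largest rises were Fstl1 (4.37 ± 0.35), the Wnt inhibitor Notum (3.90 ± 0.31), the Wnt feedback gene Nkd1 (3.84 ± 0.65), Igfbp4 (3.72 ± 0.30) and the cell surface glycoprotein Cd44 (3.35 ± 0.28). In deficient mice, where 2.45% of all tested genes were called higher, 4 of the 17 rose from mucosa to tumour, Sox9 (2.61 ± 0.42), Fstl1 (2.12 ± 0.35), Cd44 (1.75 ± 0.28) and Notum (1.46 ± 0.31). HAI-1 loss in mucosa, which called 1.05% of all tested genes, called 2 of them as higher, Notum (2.33 ± 0.31, limma, adjusted p = 0.0348) and Igfbp4 (2.26 ± 0.30, limma, adjusted p = 0.0348), while in tumours 0 were called by limma.

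The next 4 lists were read against the same 21.2% of genes higher and 7.65% lower. Of 15 niche ligands and receptors 7 were tested, and in control tumours 3 rose, the BMP antagonist Grem1 (7.26-fold with low arrays raised to the filter value), Wnt5a (2.89 ± 0.35 log2) and the growth factor epiregulin, Ereg (2.63 ± 0.47), while the R-spondin Rspo2 fell by 1.17 ± 0.35. Of 12 tested Notch pathway genes 3 rose, the target gene Hey1 (2.41 ± 0.51), the receptor Notch2 (1.83 ± 0.28) and the ligand Jag1 (2.83-fold), and the ligand Dll1 fell by 1.03 ± 0.24, counts near the shares over all tested genes in both directions. Cell cycle genes rose for 9 of 11 in control tumours (median 1.70 log2), with the mitotic kinase Bub1 at 2.16 ± 0.45 and Ccna2, which encodes cyclin A, at 2.04 ± 0.46. Of 11 absorptive enterocyte genes 3 fell, the aminopeptidase Anpep by 3.17 ± 0.66, lactase, Lct, by 2.25 ± 0.61 and the glucose transporter Slc5a1 by 0.99 ± 0.25, with a list median of -0.39. In these 4 lists HAI-1 loss called 0 genes by limma in mucosa and 0 in tumours.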

How the data were processed

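RNA of 8 samples was labelled in 1 cycle from 6 ug and measured on Affymetrix mouse arrays, per the labels' protocols. The authors deposited 1 log2 value per probe set and array; per the submitters' processing notes MAS5 and RMA were used, whose roles and versions are unstated. The values are of the MAS5 kind, with a trimmed linear mean of 500.003 to 500.004 on every array, and were not scaled further. Platform annotation gave a single gene to 34958 of 45101 probe sets. Symbols were checked against GRCm38.p6, to which 34754 of these were matched, and 0 symbols changed. Probe sets with a mean under the 40th percentile (5.20 log2) were removed, and the brightest probe set of each gene was kept.

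Group means were fitted with limma 3.58.1 in R 4.3.3 to all 8 arrays (4 residual and 3.52 prior degrees of freedom). Tests were two-sided, adjusted by Benjamini-Hochberg over 13118 genes, with a call at an adjusted p under 0.05; the script was checked on simulated data. With 2 arrays per group their number limits the precision. Members and lists were chosen with earlier results of these data known. Of list genes, those called were named, at most the 5 largest per direction; likeness was computed for Lgr5, Olfm4 and Hopx, without gene models lacking a descriptive symbol. Motifs were searched with python 3.11.15. Alternatives were another normalization, other filters, a variance trend, other handling of probe sets and low values, a replicate block, a spike-in term, fewer groups and leaving out each array.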

Additional observations from a re-analysis of the deposited data

Results flagged for a closer look

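For 4 of the 16 probe sets that passed the filter, both HAI-1 deficient arrays lay on one side of both control arrays in mucosa and on the other side in tumours. The share of all tested genes with this pattern was not counted. Deficient arrays lay above the control ones for 30.9% of all tested genes in mucosa and below them for 17.3%. In tumours these shares were 18.6% and 19.4%. The differences in mucosa and tumours were 0.71 and -0.098 log2 for Prom1, 0.62 and -0.37 for Msi1, 0.15 and -0.30 for the second Bmi1 probe set and -0.28 and 1.13 for the second Hopx probe set. For the second Hopx probe set the tumour arrays also lay below the mucosa arrays in control mice (-0.71 log2) and above them in deficient mice (0.70 log2). The interaction was not called by limma for any of them, at -0.81 for Prom1 (adjusted p = 0.642), -0.99 for Msi1 (adjusted p = 0.499), -0.45 for the second Bmi1 set (adjusted p = 0.741) and 1.41 for the second Hopx set (adjusted p = 0.575).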

How the results depend on the processing

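The 0 members called by limma for HAI-1 loss in either tissue and for the interaction were 0 under every alternative run. Of 17 called member differences, 0 changed sign. In control mice 6 members were called without each array and 3 with the mean of probe sets, which left Msi1 under the filter. Over both genotypes 4 were called with that mean, and Ascl2 and Hopx lost their calls. In deficient mice the 4 calls became 2 with quantile normalization, 1 with the mean of probe sets, 1 with the replicate block, and 0 with no filter, with only the groups compared or with probe sets tested on their own, and ranged from 0 to 2 without 1 array. The deviations of first arrays correlated at -0.138 to 0.220, which with 2 arrays per group cannot decide if equal numbers mark paired samples. Over all genes, the 551 calls in deficient mice became 0 with no filter, 205 with the mean of probe sets, 341 with the block, 959 with the 60th percentile filter, 972 with a variance trend and 1000 with low values raised, and the 138 of HAI-1 loss in mucosa became 0, 24, 84, 331, 370 and 279, and 46 with quantile normalization or only the groups compared. Signs turned only in differences that were not called. With the mean of probe sets these were, for HAI-1 loss in tumours, Smoc2 (0.030), Bmi1 (-0.056) and Lrig1 (-0.34), for deficient tumours against mucosa Lrig1 (-0.14), and for the interaction Ascl2 (0.63). With quantile normalization they were Ascl2 for HAI-1 loss in tumours (-0.10) and Olfm4 in control mice (0.061), and with a spike-in term Hopx for HAI-1 loss in tumours (-0.077) and Olfm4 over both genotypes (-0.046). Without 1 array, HAI-1 loss in mucosa ranged from -0.17 to 0.63 for Smoc2, -0.20 to 0.71 for Lrig1 and -0.35 to 0.13 for Hopx. In tumours it ranged from -0.77 to 0.38 for Lgr5, -0.30 to 0.38 for Ascl2, -2.40 to 0.92 for Olfm4, -0.19 to 1.16 for Tnfrsf19, -0.14 to 0.54 for Lrig1 and -0.091 to 0.22 for Hopx. Tumour against mucosa for Olfm4 ranged from -0.66 to 0.58 in control mice, -1.50 to 1.82 in deficient mice and -0.77 to 0.89 over both. The interaction ranged from -1.46 to 1.85 for Olfm4, -0.51 to 0.40 for Lrig1 and -0.066 to 0.41 for Hopx. The causes were not tested. Signals near the filter value limit what the dim probe sets can show.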
